A study of Mus musculus with 4 samples.

Results

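The T cell receptor alpha chain of mouse T cells is assembled at a locus on chromosome 14. Described here is a run of 163 of the array's 41345 probe sets, bounded by number at sets named for this locus. A probe set is a group of short probes whose signals are summarised as 1 value. The run was taken from probe set 17299796 to probe set 17300247, the lowest and the highest number of a probe set that the platform annotation pairs with exactly 1 symbol beginning Trav, and every set between them was kept as its own member, in number order, named or not. Its bounds came from annotation and numbering alone, but the run was selected on differences between TACI-/- and WT cells that earlier results of these data had shown, so the differences between genotypes are given as a description; calls from the fit over all probe sets are counted beside the share of all sets, and nothing is read from them. The samples were naive CD4+ T cells, sorted as CD62L high, CD44 low and CD25 negative, from pooled spleen and lymph nodes of C57BL/6 mice that lacked TACI (the product of Tnfrsf13b, a receptor for the cytokines BAFF and APRIL) or were WT. Each genotype had 2 arrays (Affymetrix Mouse Gene 2.0 ST, total RNA labelled with biotin), which the labels call biological replicates. Age, treatment, the deleted part of Tnfrsf13b and the origin of the mutant allele are not given in the sources used here.

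In a developing T cell, 1 V segment of the alpha locus is joined to 1 J segment, and splicing adds the constant region, so each cell transcribes a chain with its own V and J. The alpha chain pairs with a beta chain and is held at the surface by the CD3 chains, which carry the signal inward. In a bulk sample the value of a V probe set therefore depends on how many cells use a segment and on how much of its RNA each cell holds, and these cannot be told apart. The mouse alpha V cluster contains large repeated blocks, written d and n in segment names, whose copies are nearly identical in sequence.

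The annotation paired 18 members with 1 Trav symbol, 4 with 1 other symbol, 1 with several symbols and 140 with none. The 18 sets share only 5 symbols, with Trav12-2 on 6 sets, Trav9d-3 on 5, Trav7-4 and Trav14d-3-dv8 on 3 each and Trav3-4 on 1. A symbol used several times over does not settle which segment a set measures, and no member was named from its place. The nearest named sets were Olfr1509 before the run and Abhd4 after it, which lie beside the alpha locus in the RefSeq gene order of GRCm38.p6 as well. Between Olfr1509 and the first member stand 8 sets without symbol, which the bounds leave out. The sources used here do not say whether they belong to the locus. That order lists 130 Trav symbols (16 of them pseudogenes), then 60 Traj symbols (9 of them pseudogenes) and then Trac, the constant region. It also lists delta chain segments, with 6 Trdv, 2 Trdd and 2 Trdj symbols. The members at places 103 to 162 form the longest unbroken series of sets numbered 2 apart, and this series holds 60 sets, of which 4 carry a Trav symbol and 56 none. The sources used here do not say whether these sets measure V, J or other segments.

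Most members gave a clear signal. Their median level was 7.21 log2 units in TACI-/- and 7.48 in WT cells, against 4.11 in both genotypes over all 41345 sets. The low-value filter was the level that 40% of the sets with 1 symbol lie below on an array (3.74 to 3.77 log2 units), and 135 members were at or above it on all 4 arrays while 13 were below it on all 4. The last member, 17300247 (symbol Trav9d-3), had the highest array values of the run, 11.99 and 11.98 log2 units in TACI-/- and 12.20 and 12.15 in WT cells. Its genotypes did not overlap, and they differed by -0.19. Probe sets differ in how well they bind their targets, so the order of the members by level does not rank segments by RNA amount. Beside it, set 17300209 was at 10.64 and 10.69 in TACI-/- and 11.05 and 11.03 in WT cells, and set 17300173 (Trav12-2) at 10.51 and 10.54 against 10.61 and 10.35. The first of these was lower in TACI-/- cells on every array, and the other overlapped. Of the 8 members with the highest means, 5 were lower in TACI-/- cells without overlap, against 17.2% of all sets, and the others overlapped. The 5 include set 17300165, at 9.82 and 9.64 against 11.18 and 11.09 log2 units, a difference of -1.41.

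**Figure D1:**
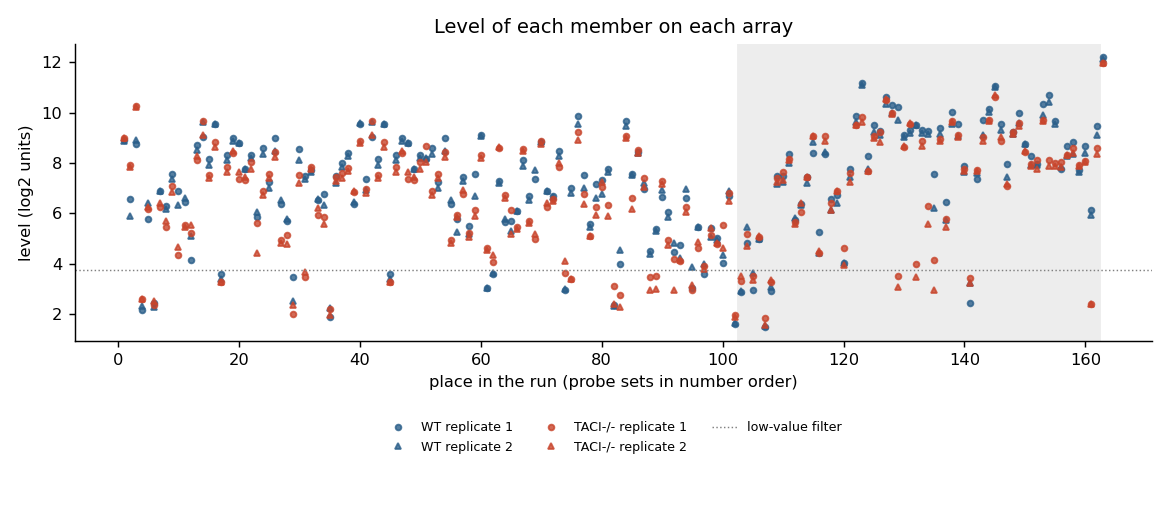
Level in log2 units (vertical axis) of the 163 members in number order (horizontal axis), with circles for replicate 1 and triangles for replicate 2, red for TACI-/- and blue for WT. The dotted line is the low-value filter and the grey band marks the 60 sets numbered 2 apart; most members lie above the filter, and a few red points lie far below the blue points at the same place.

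Across the run, values were more often lower in TACI-/- cells than higher. In 90 of the 163 members both TACI-/- arrays lay below both WT arrays, a share of 55.2%, against 17.2% of all probe sets. In 32 members (19.6%) both TACI-/- arrays lay above both WT arrays, against 19.8% of all sets, and in the others the genotypes overlapped. The median log2 difference, TACI-/- minus WT, was -0.36 over every member and 0.01 over all probe sets, and the middle 50% of the members lay between -0.67 and 0.09. It was -0.22 without WT replicate 1. The median gap between the 2 arrays of a genotype was 0.16 log2 units for TACI-/- and 0.20 for WT over the members, and the median size of the difference between genotypes was 0.43. Over all sets the median size of the difference was 0.16, with gaps of 0.20 and 0.19.

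Large differences were mostly downward. With separated genotypes, 27 members were lower in TACI-/- cells by at least 1 log2 unit (16.6%, against 0.750% of all sets) and 4 were higher by at least 1 (against 0.593% of all sets). A difference of -3 or beyond was found in 9 probe sets of the whole array, and 7 of these are members; no set of the array was higher by 3 or more. With values below the filter set to it, which gives lower bounds, 24 members were lower and 3 higher by at least 1 log2 unit, and 5 were lower by at least 3. In 7 members both WT arrays were at or above the filter and both TACI-/- arrays below it (against 0.839% of all sets), and in 2 members the reverse held (against 0.752%). In limma over the 25039 probe sets that passed the filter, 148 of them members, 5 members were lower in TACI-/- cells at an adjusted p under 0.05 (0.0200% of tested sets were called lower) and 0 members were higher (0% of tested sets were called higher). At an unadjusted limma p under 0.05, 67 members were lower and 9 higher, beside 1068 and 1009 of all tested sets. Without any 1 of the 4 arrays, 0 members passed the adjusted threshold. The run was chosen with this contrast known, so nothing further is read from these counts.

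**Figure D2:**
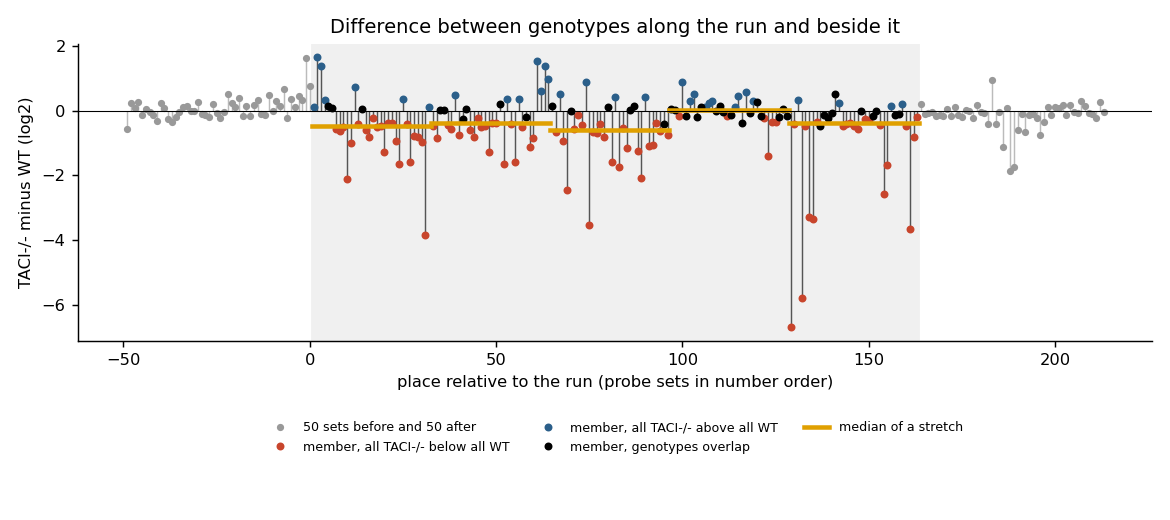
TACI-/- minus WT in log2 units (vertical axis) for the 163 members (grey band) and the 50 sets on each side, in number order. Red and blue points are members whose genotypes do not overlap, black points those that overlap, and the yellow bars are the medians of 5 stretches, from -0.60 to 0.01; the 2 deepest points, at -6.68 and -5.77, stand at places 129 and 132.

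The 2 largest differences, also with low values set to the filter, belonged to unnamed members of the series numbered 2 apart. Set 17300177, at place 129, was at 3.50 and 3.09 log2 units in TACI-/- and 10.23 and 9.71 in WT cells, a difference of -6.68. Set 17300183, at place 132, was at 3.97 and 3.49 in TACI-/- and 9.50 and 9.50 in WT cells, a difference of -5.77. On the TACI-/- arrays the first lay below the filter on both and the other on 1 of 2, and values there have no certain order. With such values set to the filter, the sizes were 6.21 and 5.63 log2 units, which are lower bounds. Set 17300241, at place 161, had 2.38 and 2.40 against 6.13 and 5.93, a difference of -3.64. Both of its TACI-/- arrays lay below the filter, and the size with these set to the filter was 2.28.

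A pair of members outside that series had the same pattern of WT arrays above and TACI-/- arrays below the filter with differences of this size. Set 17299893, at place 31 and with the symbol Trav14d-3-dv8, a V segment that can also be joined into delta chains, was at 3.49 and 3.66 log2 units in TACI-/- and 7.49 and 7.38 in WT cells, a difference of -3.85. Set 17300024, at place 75 and unnamed, was at 3.38 and 3.41 against 7.01 and 6.81, a difference of -3.52. With their TACI-/- values set to the filter, the sizes were 3.68 and 3.16 log2 units. The SD between the replicates of a genotype was at most 0.37 log2 units in these and in 17300177, 17300183 and 17300241 (n = 2).

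The other 2 members with a difference of -3 or beyond stood at neighbouring places. Set 17300187, at place 134, was at 6.29 and 5.59 log2 units in TACI-/- and 9.28 and 9.14 in WT cells, above the filter on every array, a difference of -3.27. Set 17300189, at place 135 and with the symbol Trav3-4, was at 4.16 and 2.95 against 7.56 and 6.23, a difference of -3.34, or a size of 2.93 with its 1 TACI-/- value below the filter set to it. The replicates of the Trav3-4 set were far apart in both genotypes (SD 0.85 in TACI-/- and 0.94 in WT cells, n = 2), yet the genotypes did not overlap.

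**Figure D3:**
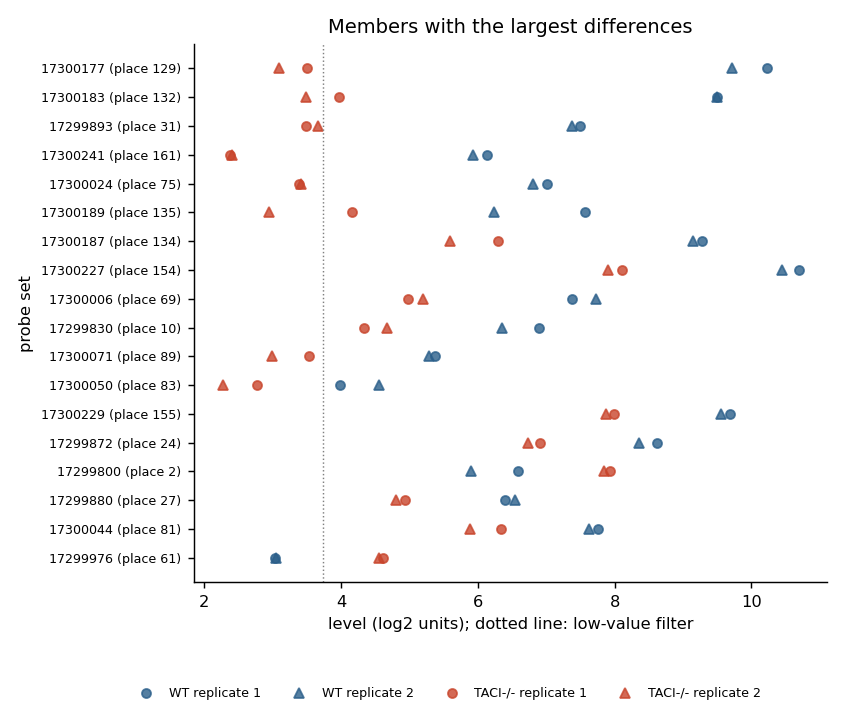
Level in log2 units (horizontal axis) on each of the 4 arrays for the members with the largest differences among those with separated genotypes, from the largest at the top; the 2 members whose values repeat another member's are left out. WT arrays (blue) lie to the right of TACI-/- arrays (red) except for sets 17299800 and 17299976, and the dotted line is the low-value filter.

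The other large differences kept both genotypes in a measurable range more often. Set 17300227, at place 154, was at 8.11 and 7.90 log2 units in TACI-/- and 10.69 and 10.44 in WT cells, a difference of -2.56, and its neighbour 17300229 at 7.99 and 7.88 against 9.69 and 9.56, a difference of -1.69. Set 17300006, at place 69, was at 4.98 and 5.20 against 7.37 and 7.73, a difference of -2.46, and set 17299830, at place 10, at 4.33 and 4.67 against 6.90 and 6.35, a difference of -2.12. These 4 were above the filter on all 4 arrays, with both TACI-/- arrays below both WT arrays. Set 17300071, at place 89, was at 3.53 and 2.99 against 5.37 and 5.29, and set 17300050, at place 83 and with the symbol A430107P09Rik, at 2.77 and 2.27 against 3.99 and 4.55. Each lay below the filter in TACI-/- cells, with differences of -2.07 and -1.75, or sizes of 1.58 and 0.52 with these values set to the filter. Set 17300044, at place 81, was at 6.34 and 5.89 against 7.76 and 7.63, a difference of -1.58.

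The 4 members that were higher in TACI-/- cells by at least 1 log2 unit lay near the start of the run and about places 61 to 63. At places 2 and 3, set 17299800 was at 7.93 and 7.84 log2 units in TACI-/- and 6.58 and 5.90 in WT cells, a difference of 1.64, and set 17299804 at 10.26 and 10.22 against 8.76 and 8.93, a difference of 1.39. At places 61 and 63, set 17299976 was at 4.61 and 4.55 against 3.04 and 3.05, a difference of 1.53 with both WT arrays below the filter (0.84 with these set to it), and set 17299983 at 8.61 and 8.64 against 7.28 and 7.22, a difference of 1.37. All 4 are unnamed. None of them belongs to the series numbered 2 apart.

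Sets that carry the same Trav symbol did not share 1 difference. The 3 sets of Trav14d-3-dv8 had differences of -3.85, -0.58 and -1.09 at places 31, 38 and 91, and the set at place 38 was at 7.81 and 7.70 log2 units in TACI-/- and 8.41 and 8.27 in WT cells. The 6 sets of Trav12-2 ranged from -0.59 to 0.04, with 5 lower in TACI-/- cells on every array and the one at place 127 overlapping; 2 of the 6 repeat the values of another. The 5 sets of Trav9d-3 ranged from -0.74 to 0.33. Of these, set 17299919 was at 8.89 and 8.78 against 9.57 and 9.58, while set 17300181, at place 131 among the deepest differences, was at 9.55 and 9.60 against 9.31 and 9.18 and was the 1 set of this symbol that was higher. The 3 sets of Trav7-4 ranged from -0.08 to 0.13, and the first member of the run, 17299796, was one of them, at 9.0 and 8.98 against 8.92 and 8.87. Over the 18 sets with 1 Trav symbol, 13 were lower in TACI-/- cells without overlap, 2 were higher and 3 overlapped, with a median difference of -0.50. These shares are 72.2% and 11.1%, against 17.2% and 19.8% of all sets, and 2 of the 18 repeat the values of another. Grouped by the letter in the symbol, the 8 sets with d had a median of -0.56 and the 10 sets with neither letter -0.45; no set with 1 symbol carried n.

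Part of the run is present more than once in the table. There were 14 pairs of members with identical values on all 4 arrays, and 13 of these pairs stood exactly 28 places apart, within places 14 to 27 and 42 to 55. In these blocks places 23 and 51 did not match: set 17299869 was at 5.6 and 4.43 log2 units in TACI-/- and 5.85 and 6.06 in WT cells, and set 17299946 at 8.70 and 8.03 against 8.16 and 8.20. The matched block includes both sets with the symbol Rps19, a ribosomal protein gene of chromosome 7; the RefSeq order lists 2 Rps19 pseudogenes inside the alpha locus. Both Rps19 sets read 9.66 and 9.10 log2 units in TACI-/- and 9.03 and 9.65 in WT cells, overlapping. The blocks also hold 4 of the members with the largest differences, as 2 matched pairs. These are 17299872 (6.91 and 6.73 against 8.62 and 8.35, a difference of -1.66) and 17299880 (4.94 and 4.81 against 6.39 and 6.55, a difference of -1.60), with their copies 17299949 and 17299957. With each repeated set counted once, 149 members remained, with a median difference of -0.27. Without overlap, 78 of them were lower in TACI-/- cells (52.3%, against 17.2% of all sets) and 31 higher (20.8%, against 19.8%). In limma, 5 were past the adjusted threshold, while 0.0200% of all tested sets were called lower. Near-identical copies can share probes, so values of separate members are not independent measurements.

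Differences were unevenly placed along the run. Divided into 5 stretches by order alone, the first 4 of 32 members and the last of 35, the median differences were -0.49, -0.39, -0.60, 0.01 and -0.37. The third stretch, places 65 to 96, had 22 of 32 members lower without overlap and 4 higher, and 9 of the 22 were lower by at least 1 log2 unit. The fourth stretch, places 97 to 128, had 6 lower and 10 higher and 1 lower by at least 1 log2 unit, and its median difference was near that of all probe sets. In the last stretch, places 129 to 163, 21 were lower and 4 higher, and it held 5 of the 7 members at -3 or beyond. The first and second stretches had 22 and 19 members lower and 7 higher each. Except at place 51, the sets at places 42 to 55 of the second stretch repeat values of the first. The counts of these 2 stretches are therefore not independent. In order, the shares lower were 68.8, 59.4, 68.8, 18.8 and 60%, against 17.2% of all sets. The shares higher were 21.9, 21.9, 12.5, 31.2 and 11.4%, against 19.8% of all sets. Lower by at least 1 log2 unit were 28.1% of the third and 3.12% of the fourth stretch, against 0.750% of all sets. Whether stretches differ was not tested, since the run was chosen with the contrast known.

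**Figure D4:**
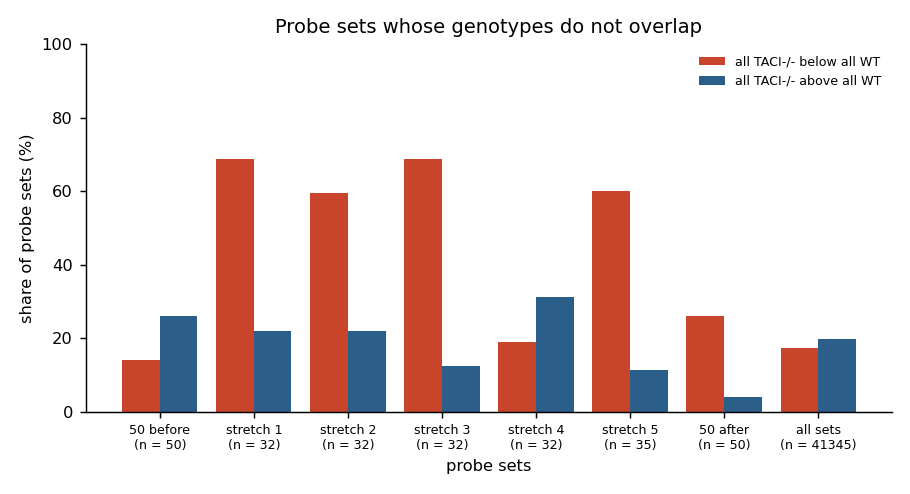
Share of probe sets in percent (vertical axis, from 0) whose 2 TACI-/- arrays both lie below (red) or both above (blue) the 2 WT arrays, for the 50 sets before the run, its 5 stretches, the 50 sets after it and all probe sets. The lower share is 68.8, 59.4, 68.8, 18.8 and 60% in the 5 stretches and 17.2% over all sets. Part of the second stretch repeats values of the first.

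Apart from a neighbouring pair, the deepest differences stood beside much smaller ones, between -0.96 and 0.89. The neighbours of set 17300177 had differences of -0.18 and -0.40, those of 17300183 0.33 and -0.49, and those of 17300241 -0.48 and -0.80. The neighbours of the Trav14d-3-dv8 set at place 31 had -0.96 and 0.12, and those of 17300024 had 0.89 and -0.65. Only 17300187 and 17300189, of the 7 members at -3 or beyond, were next to each other. The sign changed 63 times along the run; the longest series of one sign was 10 negative members, at places 15 to 24, and the longest positive series was the first 6 members. Without the 7 members at -3 or beyond, the median difference of the remaining 156 was -0.28.

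Within the series numbered 2 apart, the pattern was a small shift with a few deep exceptions. Of its 60 members, 25 were lower and 12 higher in TACI-/- cells without overlap, the median difference was -0.18, and 5 of the 7 members at -3 or beyond belong to it. The shares are 41.7% lower and 20% higher, against 17.2% and 19.8% of all sets. The median difference of the series was smaller in size than its median gap between the 2 WT arrays, 0.25 log2 units (0.09 for TACI-/-). In the other 103 members, 65 were lower and 20 higher (63.1% and 19.4%), and the median was -0.41. Of these, 19 (18.4%) were lower by at least 1 log2 unit without overlap. In the series 8 of 60 (13.3%) were, and over all sets 0.750%. Pearson's correlation across members was 0.995 between the TACI-/- arrays and 0.990 between the WT arrays in the series, and 0.791 to 0.829 between arrays of different genotypes. Over the whole run it was 0.992 and 0.989 within and 0.862 to 0.881 between genotypes, and over all tested sets 0.965 and 0.970 within and 0.954 to 0.963 between. Some members repeat the values of others and all share the same 4 arrays, so these correlations carry no test.

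**Figure D5:**
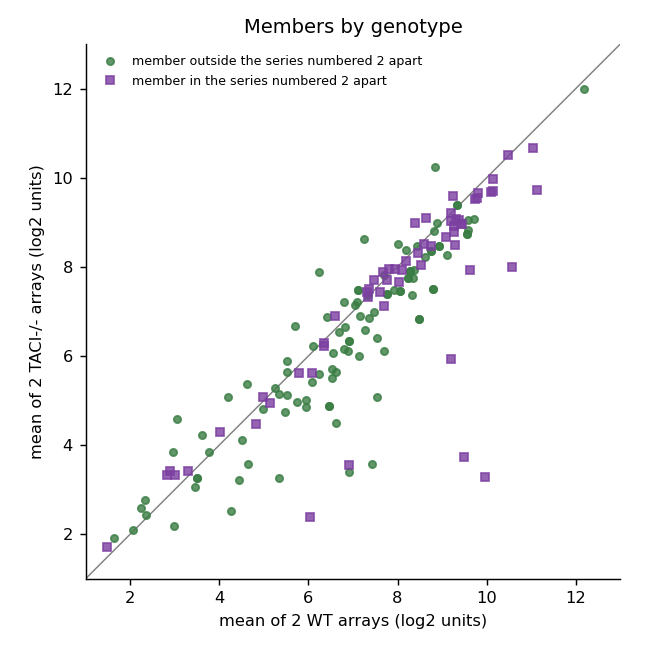
Mean of the 2 TACI-/- arrays (vertical axis) against the mean of the 2 WT arrays (horizontal axis), both in log2 units, for the 163 members; purple squares are the 60 sets numbered 2 apart, green circles the other 103, and the line marks equal levels. Most members lie on or just below the line, and 7 lie 3 or more units below it.

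The 50 sets on each side of the run had median differences smaller in size than that of the run. Of the 50 sets numbered just before it, 7 were lower and 13 higher in TACI-/- cells without overlap, with a median difference of 0.08, and of the 50 just after it, 13 were lower and 2 higher, with a median of -0.08. The shares were 14% lower and 26% higher before the run and 26% lower and 4% higher after it, against 17.2% and 19.8% of all sets. The 8 sets just before the first member carry no symbol, and 6 of them (75%) were higher in TACI-/- cells without overlap. The median difference of these 8 was 0.40, not smaller in size than that of the run. The nearest, 17299792, was at 4.36 and 3.85 log2 units in TACI-/- and 3.15 and 3.53 in WT cells, and the next, 17299788, at 8.41 and 8.11 against 6.45 and 6.81, a difference of 1.63 like that of the member at place 2. Just after the last member, Abhd4, an enzyme of lipid metabolism, had a difference of 0.19. After the run, 3 unnamed sets of the 50 were lower by at least 1 log2 unit without overlap, from -1.11 to -1.87 (6%, against 0.750% of all sets). At an unadjusted limma p under 0.05, 7 of the 45 tested sets after the run were lower and 0 higher, and of the 22 tested before it 0 were lower and 3 higher.

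Other T cell receptor genes did not show differences past the threshold, which few sets of the array passed. Of the listed genes of beta, gamma and delta chains, CD3 and recombination, 9 probe sets had 1 symbol and 7 passed the filter. In limma, 0 of the 7 were past an adjusted p of 0.05. Over all tested sets 0.0200% were called lower and 0% higher, so this count does not show that these genes were unchanged. At an unadjusted limma p under 0.05 were 2, Trbv13-2 and Rag2. Of the 9 sets, 8 had negative differences and 1 positive, with a median of -0.13. Trbv13-2, a beta chain V segment, was at 8.01 and 8.0 log2 units in TACI-/- and 8.51 and 8.56 in WT cells, so the difference was -0.53 ± 0.14 (SE; adjusted p = 0.435 by limma). The CD3 chain genes Cd3d, Cd3e and Cd3g, whose products carry the receptor's signal, had -0.30 ± 0.15, -0.21 ± 0.15 and -0.13 ± 0.14 (SE). Rag2, of the recombinase that joins the segments, had 0.39 ± 0.14 and lay below the filter on both WT arrays, Dntt, which adds bases at the joints, had -0.08 and Ptcra, the surrogate alpha chain of early thymocytes, -0.13. No constant or joining segment had a probe set with 1 symbol, so Trac and the beta constant genes were not analysed by name. Whether any member of the run measures a joining segment or Trac cannot be settled from the symbols. This holds for the last member too, whose symbol is shared with other sets.

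Markers of the sort and of other cells were read beside these values. Cd4 was at 10.57 and 10.45 log2 units in TACI-/- and 10.64 and 10.46 in WT cells, Cd44 at 6.00 and 5.83 against 5.65 and 5.79, and Il2ra (CD25) at 5.25 and 4.83 against 4.85 and 4.65. The targeted gene Tnfrsf13b, of chromosome 11, was below the filter on all 4 arrays, with a difference of -0.07, so it does not check the labels. The summed level of the 5 measured markers of naive CD4+ T cells was 12.86 to 12.90 log2 units in TACI-/- and 12.98 to 13.11 in WT cells. Of the CD8 T cell markers, Cd8a was below the filter on all 4 arrays while Cd8b1 differed by -0.65 ± 0.18 (SE; adjusted p = 0.473 by limma), and the pair summed to 5.94 to 6.28 against 6.66 to 6.71. All 4 regulatory T cell markers had positive differences, and their summed level was 7.56 to 7.70 in TACI-/- and 6.72 to 6.82 in WT cells; Ctla4 was at 6.27 and 6.25 against 4.60 and 4.79. Of 11 B cell marker sets 10 had positive differences, with a summed level of 8.02 to 8.36 against 7.72 to 7.88. Among the 11, Ms4a1 and Blnk were below the filter on all 4 arrays. The 4 NKT cell markers summed to 7.16 to 7.28 against 6.85 to 6.97 but did not share a direction. Slamf1 differed by 0.45 and Klrb1c, below the filter on all 4 arrays, by 0.40. Zbtb16 differed by -0.34 and Cd1d1 by -0.12. The 2 measured gamma delta markers summed to 5.61 to 5.73 against 5.40 to 5.81, with Blk below the filter on all 4 arrays. The 5 NK cell markers summed to 6.39 to 6.44 against 6.58 to 6.70. Of these, 3 had negative and 2 positive differences, with Klrd1 at -0.87 and Eomes at 0.79. The 7 monocyte and macrophage markers summed to 7.43 to 7.62 against 7.21 to 7.39. Here 4 had negative and 3 positive differences, with Lyz2 at -0.49 and Cd68 at 0.71. No marker in these lists passed the adjusted threshold, and the part of such cells in the members' differences was not tested.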

How the data were processed

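Naive CD4+ T cells of 2 genotypes were measured on 4 arrays, 2 per genotype, grouped by the titles. The authors deposited 1 log2 value per probe set and array, 41345 sets, from 0.94 to 13.2. The submitters' processing notes list RMA and Partek but no version; base 2 was taken from RMA and the range. The genome build and the bases that each probe set covers are not given in these sources. The platform annotation gave 23521 sets 1 symbol, 1814 several and 16010 none.

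A set was tested where at least 2 arrays reached that array's 40th percentile of the sets with 1 symbol, which left 25039. Testing used limma 3.58.1 (R 4.3.3) with lmFit and eBayes (genotype as the only term, two-sided, Benjamini-Hochberg over all tested sets, threshold 0.05). The fit was checked on simulated data. Replicates are called biological in the labels; whether a pool held several mice is not given, so p-values measure the spread between these arrays. Arrays have no depth, and their number limits the precision.

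Members, stretches, flanks and lists were chosen with earlier results of these data known; the series numbered 2 apart, the counting of repeated sets once and the setting of low values to the filter were chosen after their values were seen. Members named are the 20 with the largest differences among those with separated genotypes and above the filter on both arrays of a genotype, the 8 highest, both ends, and sets with 1 Trav symbol; others named, and sets beside the run, were chosen after their values were seen. Summed levels are log2 of summed linear values. Gene order came from a RefSeq table (GRCm38.p6).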

Additional observations from a re-analysis of the deposited data

How the results depend on the processing

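Precision is limited by 2 arrays per genotype and by sets near the filter, where low values have no certain order. Over all tested sets, 5 passed the adjusted threshold in limma; 8 passed with the filter at the 60th percentile, 19 when only sets with 1 symbol were tested, 9 with an intensity trend, 10 at a threshold of 0.10, and 0 with no moderation, with the replicate block or without any 1 array (range 0 to 0). Of the members, 5 passed; 1 passed when only sets with 1 symbol were tested, which leaves the unnamed members out, and 0 with no moderation, with the replicate block or without any 1 array (range 0 to 0). Fits without 1 array assume that the lone array varies like the other genotype, with 1 residual degree of freedom, as has the block. Arrays with the same number had deviations correlated at -0.05, so the numbers were not taken as pairs. The count of other T cell receptor genes was 0 in each of these settings. The median difference over the run was -0.36; it ranged from -0.45 to -0.22 without 1 array and was -0.50 over sets with 1 Trav symbol. The count of 90 members lower without overlap lay between 65 and 89 under other filters, scalings and member sets, which hold fewer members or other values. Of 252 recomputed differences of the 42 named members, 246 kept their sign; the others belong to 4 members whose genotypes overlap, and for separated genotypes leaving out an array cannot turn the sign.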
